A study of Rattus norvegicus with 15 samples.

Results

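The natural killer (NK) cell receptors described here are 8 surface receptors, namely Klrd1, Klrk1, Klrc1, Klrg1, Klrb1, Ncr1, Ncr3 and Cd244, measured by array in rat kidneys at day 4 after transplantation. A receptor was followed through every probe set that the array's annotation assigns to its symbol alone. This gave 6 probe sets for 6 of the 8 receptors, 1 each, out of 31042 probe sets tested for 14217 named genes. Klrb1 and Cd244 had no probe set under those symbols. For these, 5 probe sets of their close relatives Cd244l1, Klrb1a, Klrb1b and Klrb1c were described alongside, as related receptors that the rule did not select. Both 2B4 and Cd244 are among the RefSeq synonyms of Cd244l1.

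The study compared 3 groups of 5 kidneys from male rats 10 to 12 weeks old. In the allogeneic group (aTX), kidneys of LBN rats were placed into LEW recipients, in which they are rejected. Kidneys of the syngeneic group (sTX) went from LBN rats into LBN recipients, so that surgery and reperfusion were shared but the genetic difference was not. The control group (ctr) consisted of native LBN kidneys, described in the deposited design as the other kidneys of the donors. Both graft groups were in recipients whose own kidneys had been removed, and no immunosuppression was given. The strains are those of the study's methods, since the source names of the samples give Lewis as the donor of both kinds of graft. The treatment field of sTX 4 and sTX 5 reads allogeneic while their titles and source names read syngeneic, and both were kept as sTX. Each array carried the RNA of a whole kidney, so that fewer cells of a type and less RNA per cell cannot be told apart.

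NK cells kill on the balance of activating and inhibitory receptors. Klrk1 (NKG2D) recognises stress-induced relatives of MHC class I and signals through the adaptor Hcst (DAP10). Klrd1 (CD94) forms dimers with NKG2 chains, of which Klrc1 (NKG2A) is inhibitory and Klrc2 (NKG2C) activating. Cd244 (2B4) binds Cd48 on other leukocytes, and the Klrb1 (NKR-P1) receptors bind Clec2 proteins. Ncr1 (NKp46) and Ncr3 (NKp30) are natural cytotoxicity receptors, and Klrg1 is an inhibitory receptor for cadherins that was described in the rat as a mast cell antigen. Several of these receptors, Klrk1 and the CD94 dimers among them, are also found on subsets of T cells.

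Promoter windows are shown for Klrk1, Klrc1 and the 3 Klrb1 relatives, whose signals were higher in aTX, with that of Ncr3, whose signal stayed low, beside them. They are background to the signals, which do not rest on them, and Cd244l1, which was also higher, is not printed because none of the motifs below was found in its window. RefSeq (GRCr8) promoter windows run from 250 bases before to 50 bases after the annotated start, and 5 of the 8 receptors and 4 of 4 relatives had an entry. Klrk1, Klrc1, Klrb1, Ncr3 and Cd244 are in that table, and Klrd1, Klrg1 and Ncr1 are not. The windows are printed 5′ to 3′ in the direction of transcription, and capitals mark every match, on either strand, to 3 motifs that are bound by lymphocyte transcription factor families, namely the Runx core TGTGGT, the T-box half-site AGGTGT and the Ets core GGAAGT.
Klrk1 (chr4:164778333-164778632, minus strand): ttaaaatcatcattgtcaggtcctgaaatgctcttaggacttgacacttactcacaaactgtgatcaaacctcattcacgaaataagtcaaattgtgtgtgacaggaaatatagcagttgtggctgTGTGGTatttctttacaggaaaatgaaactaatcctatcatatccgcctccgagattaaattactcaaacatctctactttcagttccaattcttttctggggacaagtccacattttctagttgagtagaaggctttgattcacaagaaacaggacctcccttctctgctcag
Klrc1 (chr4:164838397-164838696, minus strand): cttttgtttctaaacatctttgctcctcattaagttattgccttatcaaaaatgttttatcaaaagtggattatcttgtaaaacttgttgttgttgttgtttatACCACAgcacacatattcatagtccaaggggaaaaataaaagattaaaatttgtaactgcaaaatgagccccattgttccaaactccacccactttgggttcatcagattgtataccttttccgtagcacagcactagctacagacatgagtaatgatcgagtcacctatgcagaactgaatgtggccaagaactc
Ncr3 (chr20:3648300-3648599, minus strand): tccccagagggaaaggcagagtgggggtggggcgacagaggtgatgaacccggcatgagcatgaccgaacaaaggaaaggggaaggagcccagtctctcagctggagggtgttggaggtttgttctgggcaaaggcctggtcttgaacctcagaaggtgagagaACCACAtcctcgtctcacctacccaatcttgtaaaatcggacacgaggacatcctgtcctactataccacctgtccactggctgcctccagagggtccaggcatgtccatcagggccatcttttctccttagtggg
Klrb1a (chr4:163590098-163590397, minus strand): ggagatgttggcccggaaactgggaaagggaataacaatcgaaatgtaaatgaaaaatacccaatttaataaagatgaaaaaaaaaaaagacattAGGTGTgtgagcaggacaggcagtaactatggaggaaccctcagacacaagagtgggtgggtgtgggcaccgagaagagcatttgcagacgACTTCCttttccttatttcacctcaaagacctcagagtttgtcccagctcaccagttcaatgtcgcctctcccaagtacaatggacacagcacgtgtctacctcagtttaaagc
Klrb1b (chr4:163647580-163647879, minus strand): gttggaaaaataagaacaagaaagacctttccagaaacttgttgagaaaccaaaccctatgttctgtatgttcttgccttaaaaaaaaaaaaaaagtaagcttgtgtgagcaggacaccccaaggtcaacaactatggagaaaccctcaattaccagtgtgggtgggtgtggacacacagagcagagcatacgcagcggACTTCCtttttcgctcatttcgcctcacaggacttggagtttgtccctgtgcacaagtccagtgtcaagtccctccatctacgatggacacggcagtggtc
Klrb1c (chr4:164067999-164068298, plus strand): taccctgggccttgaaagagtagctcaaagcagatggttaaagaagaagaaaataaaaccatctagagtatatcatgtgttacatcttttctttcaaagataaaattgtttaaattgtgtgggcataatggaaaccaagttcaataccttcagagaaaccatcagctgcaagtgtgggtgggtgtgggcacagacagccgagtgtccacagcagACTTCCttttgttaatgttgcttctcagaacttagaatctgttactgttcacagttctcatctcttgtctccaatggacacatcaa

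Klrk1 held the Runx core on the printed strand 124 bases before its start. Klrc1 held it on the opposite strand, where it reads ACCACA, 146 bases before the start, and so did Ncr3 at 86 bases. The 3 Klrb1 relatives each held the Ets core on the opposite strand, printed as ACTTCC, at 64 bases before the start in Klrb1a, 51 in Klrb1b and 36 in Klrb1c. Klrb1a held in addition a T-box half-site at 155 bases, and Klrb1, which has no probe set, held a T-box half-site at 112 bases. None of these letters was found in the windows of Cd244 and Cd244l1. No match overlapped another. Of 33469 promoter windows of the same length, 17.3% held the Runx core, 13.6% the T-box half-site and 22.6% the Ets core, so that each of these strings is common. A match is a string of letters and not a measured site. The windows of Ncr3, Klrk1 and Klrc1 all held the Runx core, and whether any match bears on the signals was not tested.

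Values are MAS5 signals, a linear brightness scale on which the trimmed mean of every array was 100 and the median of an array lay between 24.4 and 30.1. Changes were tested with limma on log2 signals over all 31042 probe sets and were called at a Benjamini-Hochberg adjusted p below 0.05. As MAS5 signals of different probe sets depend on the probes, no level of a receptor was set against that of another. The groups differed in facts other than the graft. The ratio of 3′ to 5′ actin signal, a measure of RNA integrity, was 1.14 to 1.29 in aTX, 1.447 to 1.609 in sTX and 1.539 to 1.976 in ctr. The arrays fell into 2 wash and stain runs. The first held aTX 2, 3 and 4 with all ctr, and the second held aTX 1 and 5 with all sTX, so that sTX and ctr were never in the same run. The part of these differences in the results was not tested beyond the values within runs given below.

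The activating Klrk1 and both chains of the CD94/NKG2A dimer, rose in the allogeneic kidneys relative to the native kidneys. That is 3 of 6 probe sets, where 20.2% of all probe sets were called higher in aTX against ctr. The same 3 of 6 showed no overlap between the aTX and the ctr kidneys in the upward direction, against 16.4% of all probe sets, and 0 did so downward, against 16.9%. None was called lower with limma, where 22.2% of all probe sets were, and 0 reached an unadjusted p below 0.05 downward with limma or the methods' t-test at its threshold of 0.001. The median log2 change of the 6 was 2.01, and that of all probe sets was -0.07. The median of the 6 lies between Klrd1 at 2.77 and Ncr1 at 1.26, which was not called, and so typifies neither.

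**Figure D1:**
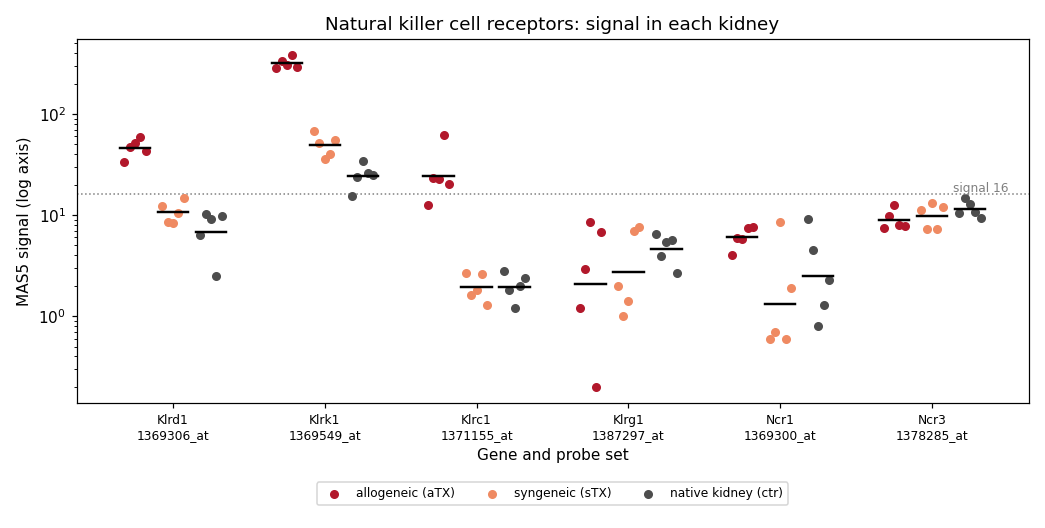
MAS5 signal (log axis) of the 6 receptors with a probe set in each of the 15 kidneys, with a black line at the geometric mean of each group of 5 and a dotted line at a signal of 16. Klrd1, Klrk1 and Klrc1 in aTX lie above every sTX and ctr kidney, while all points of Klrg1, Ncr1 and Ncr3 lie below 16.

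Klrk1 had signals of 288.1, 337.3, 306.7, 380.0 and 292.4 in aTX 1 to 5, of 67.2, 51.4, 35.7, 40.6 and 55.6 in sTX 1 to 5, and of 15.5, 23.6, 34.5, 25.9 and 24.9 in ctr 1 to 5. All 3 groups were apart, with the lowest sTX kidney at 35.7 just above the highest ctr kidney at 34.5. In aTX against ctr the log2 change was 3.73 ± 0.183 (SE), a 13.2-fold higher signal (95% interval 10.2 to 17.3, adjusted p = 1.88e-12, limma). Within the run that held aTX 2 to 4 and the ctr kidneys the signal was 14.1-fold higher (adjusted p = 9.65e-09, limma). Klrk1 had the smallest standard error of the 6 receptors and was the only one of them with most ctr signals above 16.

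Klrd1, the CD94 chain, had signals of 33.4, 47.1, 51.7, 59.2 and 43.2 in aTX, of 12.2, 8.5, 8.3, 10.6 and 14.7 in sTX, and of 6.3, 10.2, 9.1, 2.5 and 9.8 in ctr. Every aTX kidney lay above every other kidney, and the sTX and ctr kidneys overlapped. The signal was 6.80-fold higher in aTX than in ctr (log2 2.77 ± 0.345, adjusted p = 1.19e-06, limma), and 7.73-fold higher within the run. As the ctr signals lie far down the scale, the size of the fold rests on them. With every signal below 16 set to 16 it was 2.88-fold and still called.

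Klrc1, the inhibitory NKG2A chain, had signals of 12.6, 23.3, 22.5, 62.3 and 20.4 in aTX, against 2.7, 1.6, 1.8, 2.6 and 1.3 in sTX and 2.8, 1.8, 1.2, 2.0 and 2.4 in ctr. The aTX kidneys were apart from both other groups, and aTX 4 was far above the other aTX kidneys. The signal was 12.4-fold higher in aTX than in ctr (log2 3.63 ± 0.473, adjusted p = 2.11e-06, limma), and 9.77-fold to 14.6-fold with any single array left out. With signals below 16 set to 16 the fold was 1.59 and the call was lost (adjusted p = 0.0679, limma), since aTX 1 and all sTX and ctr signals are then at the floor. Its near-identical relative Klrc2 had a mean of 22.2 ± 7.41 in aTX, 1.0 ± 0.570 in sTX and 1.68 ± 1.49 in ctr (SD over 5 kidneys each), and whether the 2 probe sets share signal was not tested.

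The probe sets of the relatives of Cd244 and Klrb1 rose as well, 5 of 5 in aTX against ctr. Of all probe sets 20.2% were called higher in this comparison, and 16.4% did not overlap upward. Cd244l1, a receptor for Cd48, had signals of 94.7, 93.7, 104.7, 129.5 and 118.5 in aTX, of 13.1, 13.3, 11, 6.7 and 10.4 in sTX, and of 4.7, 10.1, 7.5, 7.0 and 3.0 in ctr for probe set 1370483_at. This was 18.0-fold higher in aTX than in ctr (adjusted p = 3.12e-10, limma), and 6.71-fold with signals below 16 set to 16, as all ctr signals lay below 16. The second probe set of Cd244l1, 1369522_a_at, had 32.4, 21.9, 32.7, 41.6 and 51.5 in aTX, 6.2, 0.1, 7.6, 5.8 and 4.8 in sTX, and 3.5, 5.3, 4.6, 6.0 and 7.6 in ctr. Its fold was 6.63 (adjusted p = 0.0121, limma), or 2.16 with the floor of 16, smaller than that of the other probe set but in the same direction, with no overlap between aTX and ctr in either. RefSeq lists a separate gene Cd244 on the same chromosome 13, and whether the probes also read it was not tested.

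Klrb1a, the activating NKR-P1A by which rat NK cells are often recognised, had signals of 43.3, 60.4, 55.2, 70.1 and 41.3 in aTX, of 14.9, 11, 9.0, 5.9 and 12.3 in sTX, and of 14.8, 6.0, 8.5, 6.0 and 12.0 in ctr. It was 5.99-fold higher in aTX than in ctr (adjusted p = 6.1e-07, limma), and 3.31-fold with the floor of 16. Klrb1b, the inhibitory NKR-P1B, had 40.8, 45.7, 44.4, 42.5 and 35.4 in aTX, 2.6, 1.2, 8.7, 4.7 and 1.3 in sTX and 7.2, 8.2, 1.5, 8.9 and 10.6 in ctr. The aTX signals of Klrb1b were close to each other and 6.83-fold above ctr (adjusted p = 0.00034, limma), or 2.60-fold with the floor of 16. Klrb1c, whose RefSeq synonym is NKR-P1F, had 30.3, 47.7, 38.2, 79.0 and 41.5 in aTX, 12.9, 4.6, 3.9, 14.8 and 7.7 in sTX and 10.9, 14.3, 22.5, 13.4 and 16.4 in ctr. It had the smallest change of these probe sets, 2.98-fold (adjusted p = 0.0012, limma), and its aTX kidneys too lay above every other kidney. An activating and an inhibitory receptor of the family were thus both higher. The 3 genes are close copies, and whether their probe sets share signal was not tested.

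**Figure D2:**
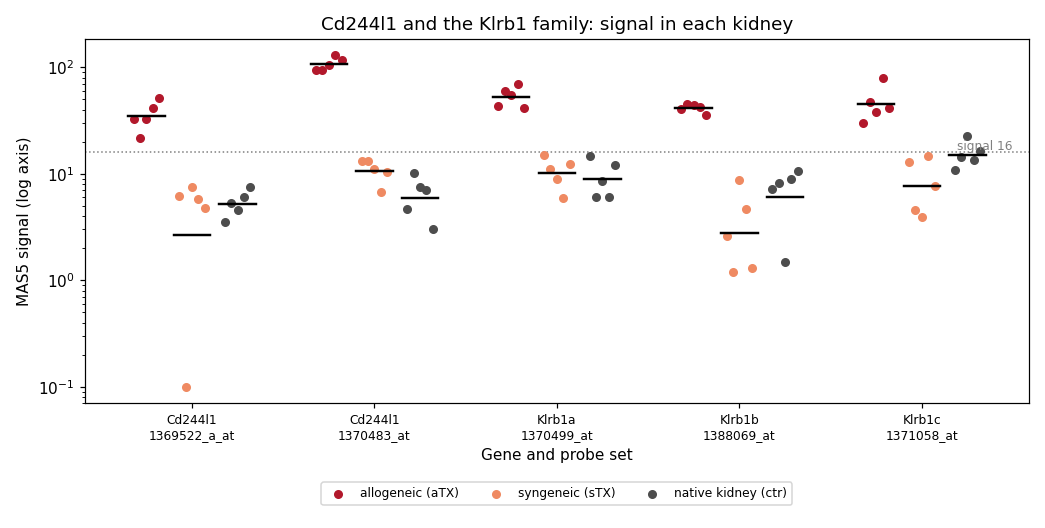
MAS5 signal (log axis) of Cd244l1 (2 probe sets), Klrb1a, Klrb1b and Klrb1c in each of the 15 kidneys, with a black line at the geometric mean of each group and a dotted line at 16. For all 5 probe sets every aTX kidney lies above every sTX and ctr kidney, and a single sTX kidney has a signal of 0.1 for probe set 1369522_a_at.

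Of the 8 probe sets called higher in aTX against ctr, 6 had their highest aTX signal in aTX 4 and 4 had their lowest in aTX 1. The kidney aTX 4 had in addition the highest summed signal of T cell markers (2376.1) and of cytotoxic granule genes (3943.2), and aTX 1 the lowest of both (1457.5 and 2306.5). Without aTX 4, Klrc1 was still 9.77-fold higher and Klrk1 between 11.9-fold and 14.5-fold higher with any array left out.

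Klrg1, Ncr1 and Ncr3 stayed at the low end of the scale. All 45 of their signals were below 16, the highest being 14.6, and 27.3% of all probe sets on the array were below 16 in all 15 kidneys. Ncr1 had signals of 4.0, 5.9, 5.8, 7.5 and 7.7 in aTX, of 0.6, 0.7, 8.5, 0.6 and 1.9 in sTX, and of 9.2, 4.5, 0.8, 1.3 and 2.3 in ctr. The aTX signals were the most even, and they lay within the range of the ctr kidneys. The log2 change in aTX against ctr was 1.26 ± 0.759 (adjusted p = 0.205, limma), with a 95% interval from 0.80-fold to 7.22-fold.

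Ncr3 had signals of 7.5, 9.9, 12.5, 7.9 and 7.8 in aTX, of 11.2, 7.3, 13.3, 7.2 and 12.0 in sTX, and of 10.5, 14.6, 13.0, 10.7 and 9.3 in ctr. The 3 groups overlapped, with a log2 change in aTX against ctr of -0.36 ± 0.304 (adjusted p = 0.389, limma) and an interval from 0.50-fold to 1.21-fold. A rise of the size seen for Klrd1 lies outside this interval for the probe set, which was designed on an expressed sequence tag. Klrg1 had 1.2, 2.9, 8.6, 0.2 and 6.8 in aTX, 2.0, 1.0, 1.4, 6.9 and 7.7 in sTX and 6.5, 3.9, 5.4, 5.7 and 2.7 in ctr. Its signals scattered more than the groups differed (log2 -1.14 ± 0.862, adjusted p = 0.327, limma), with an interval from 0.13-fold to 1.59-fold. Each interval holds for the signals of its probe set and is no limit of detection. Whether these probe sets read their transcripts at signals below 16 was not tested, so a change of the RNA may have been missed.

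In the syngeneic kidneys, which went through surgery without a genetic difference, a single receptor changed relative to the native kidneys. Klrk1 was 2.03-fold higher in sTX than in ctr (log2 1.02 ± 0.183, 95% interval 1.56 to 2.64, adjusted p = 0.000483, limma), with no overlap between the groups. This is 1 of 6 probe sets, against 11.4% of all probe sets called higher in sTX against ctr and 8.44% that did not overlap upward, and a count of 1 in 6 stands near that background. The methods' t-test gave an unadjusted p of 0.00328 on the log2 signals, which misses its threshold of 0.001. With the run as a block, which sets the groups against each other only through the aTX kidneys of both runs, the signal was 2.37-fold higher (adjusted p = 0.0415, limma).

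The other receptors did not pass the test in sTX against ctr. Klrd1 was at 1.56-fold (95% interval 0.95 to 2.58, adjusted p = 0.23, limma) and Klrc1 at 0.98-fold (0.49 to 1.95). None of the 6 was called lower with limma, where 6.32% of all probe sets were, and 0 reached an unadjusted p below 0.05 downward. The median log2 change of the 6 was -0.12, against 0.09 over all probe sets. Of the relatives, Cd244l1 1370483_at was at 1.78-fold (adjusted p = 0.0551, limma), Klrb1a at a log2 change of 0.20 and Klrb1b at -1.13. Klrb1c was at -0.97 (adjusted p = 0.0702, limma), and it was called lower when each array was centred on its median (adjusted p = 0.0239) or when arrays were quantile normalized (adjusted p = 0.0289).

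**Figure D3:**
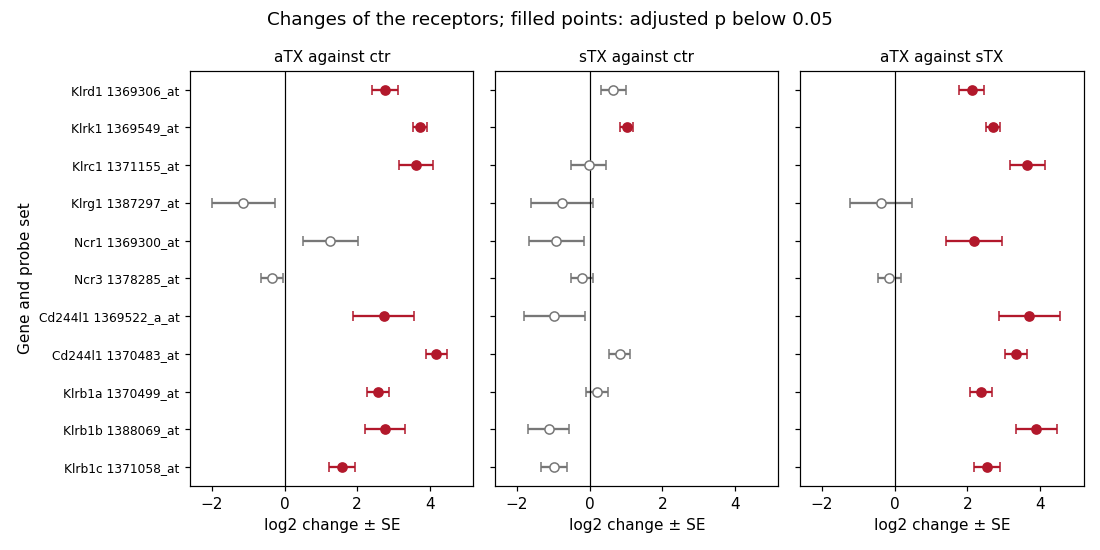
Log2 change with its standard error for the 6 receptors and the 5 probe sets of their relatives in aTX against ctr, sTX against ctr and aTX against sTX, with filled points where the adjusted p was below 0.05. In the sTX against ctr panel only Klrk1 is filled, at 1.02, whereas in aTX against sTX Klrg1 and Ncr3 alone are open.

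The direct comparison of both kinds of graft sets kidneys against each other that all went through surgery. They differed in the recipient strain, and also in wash run and in the actin ratio as given above. Klrk1 was 6.53-fold higher in aTX than in sTX (log2 2.71 ± 0.183, adjusted p = 4.24e-10, limma). Klrd1 was 4.35-fold (log2 2.12 ± 0.345, adjusted p = 4.94e-05) and Klrc1 12.6-fold higher (log2 3.66 ± 0.473, adjusted p = 3.15e-06). In these 3 the aTX and sTX kidneys did not overlap, against 12.1% of all probe sets in the upward direction. Within the run of aTX 1 and 5 and all sTX kidneys Klrk1 was 5.94-fold, Klrd1 3.58-fold and Klrc1 8.34-fold higher, each still called. This comparison shares its aTX kidneys with that against ctr, and both were made in the same fit.

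Ncr1 was the fourth receptor called higher in aTX than in sTX, at 4.55-fold (log2 2.18 ± 0.759, adjusted p = 0.0291, limma). The kidneys overlapped, since sTX 3 with 8.5 lay above all aTX kidneys, and every signal was below 10. The call was lost when aTX 4, aTX 5, sTX 1, sTX 2 or sTX 4 was left out, with adjusted p values from 0.0577 to 0.0767 in these 5 fits, and with the run as a block (adjusted p = 0.16). Thus 4 of 6 probe sets were called higher, where 13.9% of all probe sets were, and 0 were called lower with limma, at an unadjusted p below 0.05, or by the t-test, where 22.1% of all probe sets were called lower. The median log2 change of the 6 was 2.15, against -0.18 over all probe sets. It lies between Klrd1 at 2.12 and Ncr1 at 2.18, and so rests in part on the dim signals of Ncr1.

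All 5 probe sets of the relatives were called higher in aTX than in sTX, where 13.9% of all probe sets were. Since every sTX signal of the relatives was below 16, the size of their folds rests on the bottom of the scale. Klrb1b was 15-fold, Klrb1c 5.85-fold and Klrb1a 5.23-fold higher, and Cd244l1 10.1-fold for 1370483_at. With the floor of 16 these were 2.60-fold for Klrb1b, 2.80-fold for Klrb1c, 3.31-fold for Klrb1a and 6.71-fold for Cd244l1, each still called. Probe set 1369522_a_at was 13.1-fold higher (adjusted p = 0.00141, limma), a value that rests on sTX 2, whose signal was 0.1. Without sTX 2 it was 5.75-fold. Within the run, with 2 aTX kidneys, it was 15.4-fold and the call was lost (adjusted p = 0.0611, limma), and with the floor of 16 it was 2.16-fold and called.

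The genes of several of these receptors are neighbours on chromosome 4, in the NK gene complex. In RefSeq (GRCr8) order, 34 protein-coding genes lie from Klrb1a to Klrc1, and 18 of them had a probe set with that gene as its only symbol. Klrd1 and Klrk1 are adjacent, and 2 genes, Klrc3 and Klrc2, lie between Klrk1 and Klrc1. Of the 18 measured genes 15 were called higher in aTX against ctr and 1, Gabarapl1, which takes part in autophagy, was called lower, against 20.2% and 22.2% of all probe sets. Clec1b (adjusted p = 0.64) and Clec1a (adjusted p = 0.0902) did not pass the test. Genes of myeloid cells such as Olr1, a scavenger receptor, at a log2 change of 5.23 and Clec12a at 3.80 were among the 15, so that the neighbourhood did not hold NK receptors alone. The stretch was delimited by receptors whose values were already known and is given as a description. Klrg1, which lies elsewhere on chromosome 4, Ncr1 on chromosome 1 and Ncr3 on chromosome 20 are outside it.

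**Figure D4:**
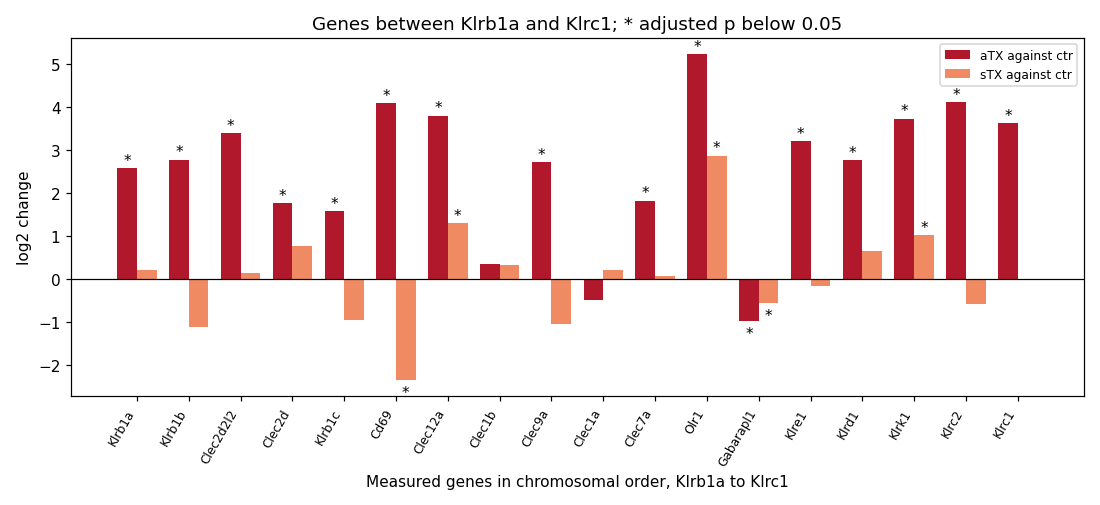
Log2 change in aTX against ctr and in sTX against ctr of the 18 measured genes from Klrb1a to Klrc1, in their order on chromosome 4 and not to distance, with an asterisk where the adjusted p was below 0.05. In aTX against ctr 15 genes are marked upward and Gabarapl1 downward, while in sTX against ctr Klrk1, Clec12a and Olr1 are marked upward and Cd69 and Gabarapl1 downward.

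The adaptors and kinases through which these receptors signal rose with them. Of 19 listed, 16 were measured and 15 were higher in aTX against ctr, where 20.2% of all probe sets were, and none lower, where 22.2% were. Their median log2 change was 3.02. Zap70, the kinase recruited to phosphorylated receptor chains, had a mean signal of 371 ± 70.2 in aTX, 21.5 ± 4.39 in sTX and 17.3 ± 3.67 in ctr (SD over 5 kidneys each), 21.6-fold higher in aTX than in ctr (adjusted p = 8.49e-14, limma). Lcp2 and Lat, scaffolds downstream of it, were 19.2-fold and 18.6-fold higher. All 3 are also central to T cell receptor signalling. Among the adaptors of the receptors themselves, Hcst and Tyrobp (DAP12) were named for this role after their values were seen. Hcst, the partner of Klrk1, had 108 ± 24.4 in aTX, 20.6 ± 3.90 in sTX and 15.1 ± 5.91 in ctr. Tyrobp had 826 ± 148 in aTX, 122 ± 23.1 in sTX and 68.4 ± 9.84 in ctr. Hcst was 7.47-fold and Tyrobp 12.0-fold higher in aTX than in ctr. The listed adaptors Fcer1g and Cd247 were 6.64-fold and 8.83-fold higher. The phosphatase Ptpn11, which inhibitory receptors recruit, was the member that did not pass the test (adjusted p = 0.948, limma). Other phosphatases of the list were higher in aTX than in ctr. Ptpn6 was 6.77-fold (adjusted p = 2.88e-15, limma) and Inpp5d 5.54-fold higher (adjusted p = 2.27e-12, limma). In sTX against ctr 8 of the 16 were higher and none lower, against 11.4% and 6.32% of all probe sets.

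Ligands of the receptors were measured for 6 of 13 listed genes, and 3 were higher in aTX against ctr and none lower, beside the same 20.2% and 22.2% over all probe sets. RT1-S3, a non-classical MHC class I gene, had a mean signal of 2078 ± 195 in aTX, 284 ± 87.9 in sTX and 233 ± 40.5 in ctr, 8.98-fold higher in aTX than in ctr (adjusted p = 1.09e-12, limma). Cd48, the ligand of 2B4, had 873 ± 88.7 in aTX, 429 ± 32.2 in sTX and 245 ± 38.6 in ctr. It was 3.59-fold higher in aTX and 1.77-fold higher in sTX than in ctr (adjusted p = 9.69e-06 for sTX). Clec2d, whose product is bound by a Klrb1 receptor in the mouse, was 3.38-fold higher in aTX than in ctr at a low signal (adjusted p = 0.0435, limma), and at 1.02-fold with no call when signals below 16 were set to 16 (adjusted p = 0.839). The cadherins Cdh1 and Cdh2, ligands of Klrg1, did not pass the test (adjusted p = 0.365 and 0.39, limma).

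Among 27 other NK surface receptors 14 were measured, Klrb1a, Klrb1b and Klrb1c included. Of these, 11 were higher and none lower in aTX against ctr (20.2% and 22.2% over all probe sets), with a median log2 change of 2.68. With the floor of 16 Klra5 (mean 8.74 in aTX) lost its call. Cd96 (mean 17.8 in aTX) gained a call with that floor (adjusted p = 0.0389, limma). Cd2, an adhesion receptor of T and NK cells, was 23.4-fold higher, or 7.04-fold with the floor of 16, with means of 113 ± 11.1 in aTX, 9.06 ± 4.51 in sTX and 5.60 ± 4.01 in ctr. Klrc2 had a log2 change of 4.11 against ctr signals at the bottom of the scale, and with the floor of 16 it was 1.37-fold higher (adjusted p = 0.0247, limma). Cd69, an early activation marker, had 259 ± 33.1 in aTX, 5.4 ± 7.63 in sTX and 15.9 ± 5.01 in ctr, and it was 17.0-fold higher in aTX than in ctr, or 14.5-fold with the floor of 16. In sTX it was called lower than in ctr (adjusted p = 0.0026, limma), but the means of both groups lay below 16 and the call was lost with the floor of 16 (0.93-fold, adjusted p = 0.697).

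Of 19 lineage factors and cytokines 11 were measured, 7 being higher and 1 lower in aTX against ctr (20.2% and 22.2% over all probe sets). Eomes, with a mean of 13.1 in aTX and 3.38 in ctr, was among the 7. It lost its call with the floor of 16 (1.03-fold, adjusted p = 0.435, limma). Xcl1, a chemokine made by activated NK and CD8 T cells, had a mean signal of 593 ± 63.8 in aTX, 19.7 ± 20.1 in sTX and 5.74 ± 3.74 in ctr. Ifng, the main NK and T cell interferon, had 299 ± 57.5 in aTX, 7.58 ± 4.75 in sTX and 4.34 ± 2.87 in ctr. The folds of both depend on ctr signals at the bottom of the scale. Xcl1 was 122-fold higher in aTX than in ctr and 36.9-fold with the floor of 16, Ifng 82.1-fold and 18.4-fold, and Il2rb, the chain shared by the receptors of Il2 and Il15, was 10.0-fold higher. The gene that was lower in aTX was Id2, a regulator needed for NK cell development that is also expressed in kidney, with 490 ± 19.5 in aTX, 520 ± 52.8 in sTX and 788 ± 81.8 in ctr. None of these 11 was called higher in sTX than in ctr with limma, and 2 were lower, against 11.4% and 6.32% of all probe sets. The 2 lower genes were Nfil3, a transcription factor of the NK lineage (fold change 0.29, adjusted p = 0.000136, limma), and Id2 (0.66, adjusted p = 1.46e-05, limma). Nfil3 had 105 ± 15.3 in aTX, 48.3 ± 5.28 in sTX and 187 ± 85.0 in ctr. Its mean in the native kidneys was thus well above 16, with a wide spread.

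**Figure D5:**
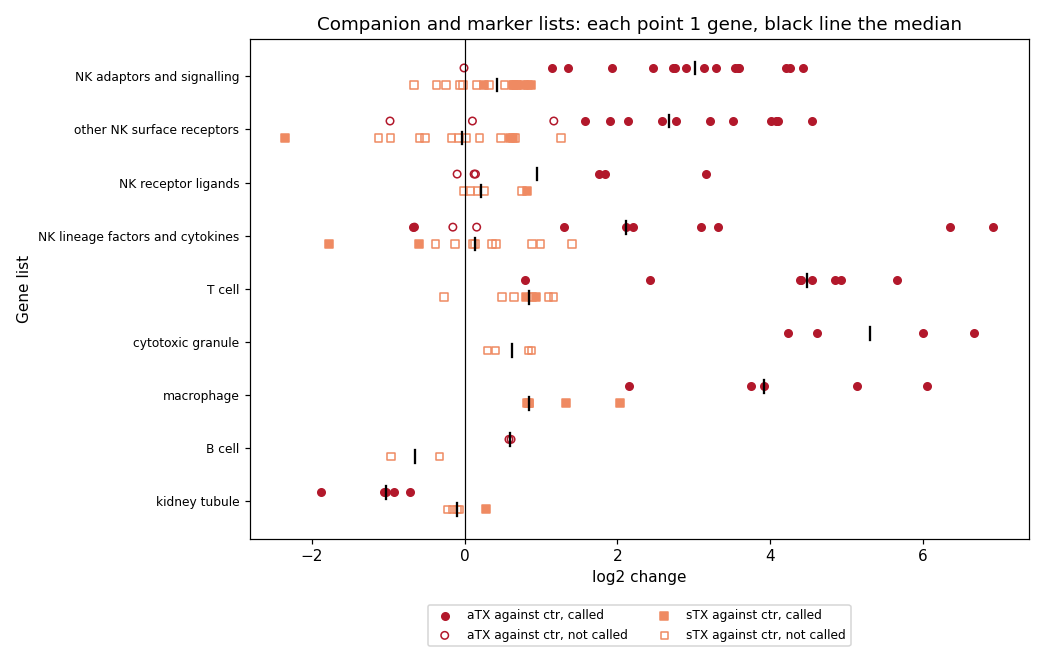
Log2 change of each measured gene of 4 NK lists and 5 cell type lists in aTX against ctr (circles) and sTX against ctr (squares), filled where the adjusted p was below 0.05, with a black line at the median of each list. In aTX against ctr the cytotoxic granule list has the highest median at 5.32 and the kidney tubule list the lowest at -1.03.

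Markers of other cells moved with the receptors. The counts below stand beside 20.2% of all probe sets called higher and 22.2% called lower in aTX against ctr. All 8 T cell markers (Cd3e, Cd3d, Cd3g, Cd5, Cd6, Cd8a, Cd8b and Cd4) were higher in aTX against ctr with a median log2 change of 4.48, and their summed signal ranged from 1457.5 to 2376.1 in aTX, 155.6 to 270.0 in sTX and 104.4 to 159.3 in ctr. The 4 measured cytotoxic granule genes (Gzma, Gzmb, Prf1 and Nkg7), which T and NK cells share, were all higher and summed to 2306.5 to 3943.2 in aTX, 66.0 to 178.0 in sTX and 50.4 to 91.6 in ctr. The 5 macrophage markers were all higher as well, with sums of 2459.7 to 2652.4 in aTX, 407.2 to 647.1 in sTX and 239.2 to 289.9 in ctr. For the B cell list 0 of 2 measured genes were called in aTX against ctr, and the sums were 11.4 to 24.4 in aTX, 3.3 to 17.2 in sTX and 10.1 to 14.3 in ctr. Kidney tubule markers were lower in aTX in 5 of 5, with sums of 6148.6 to 8327.6 in aTX, 13061.3 to 16155.9 in sTX and 13913.5 to 16924.9 in ctr, so that the organ's own markers were present in every array. In sTX against ctr, where Klrk1 was higher, 2 of 8 T cell markers (Cd3g and Cd4) were called higher with limma. So were 4 of 5 macrophage markers (Cd68, Csf1r, Itgam and Cd14), but 0 of 4 cytotoxic granule genes. Over all probe sets 11.4% were called higher in this comparison, and a count of 2 in 8 is not far from that share. With the floor of 16 Cd3g and Itgam lost their calls (adjusted p = 0.0689 and 0.573, limma). The part of T cells and macrophages in the signals of the receptors was not tested.

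Genes of similar pattern were sought for Klrk1, Klrd1 and Klrc1, the 3 receptors with the highest mean aTX signal, and not for the others. Likeness over the 15 kidneys was the root mean square difference of centred log2(signal + 16), over 14211 genes. Nearest to Klrk1 were Tlr2 (0.129), Ly86 (0.158) and Rac2 (0.179), which are genes expressed in myeloid cells or leukocytes at large. Nearest to Klrc1 were Faslg (0.187), the death ligand of cytotoxic cells, Klrc2 (0.191) and the MHC class I gene RT1-CE16 (0.226). Klrd1 stood nearest to Smpdl3a (0.133), P2ry2 (0.151) and RT1-CE16 (0.158). Among the receptors and relatives, Klrd1 lay nearer to Klrb1a (0.197) and Klrc1 (0.254) than to Klrk1 (0.715). Klrc1 lay nearest to Klrb1c (0.247). The offset of 16 shrinks the changes of dim probe sets most. In aTX against ctr it left Klrd1 at 2.66-fold and Klrc1 at 2.30-fold, but Klrk1 at 8.29-fold. Nearness by this measure therefore also follows brightness. These distances describe 15 kidneys that fall into 3 groups and share their arrays.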

How the data were processed

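Total RNA of 15 whole kidneys (aTX, sTX and ctr, 5 each) was hybridised to Affymetrix rat genome expression arrays. The authors deposited MAS5 signals, an intensity on a linear scale with a background already removed and with each array scaled to a common trimmed mean (100 here, 2% trimmed per side). The deposited instrument records were used for the wash runs alone. Ratios of 3′ to 5′ actin came from the control probe sets. Depth does not apply to arrays, and the number of arrays limits the precision.

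Of 31099 probe sets, 57 Affymetrix controls were left out. Of the 31042 others, 20826 had 1 gene symbol in the platform annotation, 436 several and 9780 none. Before log2, 0.05 stood in for the 54 signals of 0, which belonged to 36 probe sets. All 15 arrays were fitted together in limma 3.58.1 (R 4.3.3, eBayes with trend), with Benjamini-Hochberg adjustment. The 8 receptors, the lists and the motifs were chosen with earlier results of these data known. Named by rule were all receptor probe sets and, of each NK list, the 3 called genes with the largest absolute log2 change in aTX against ctr. The rule also named the 3 genes nearest in pattern to each of the 3 receptors with the highest mean aTX signal. Further list genes, such as Fcer1g, Ptpn6, Ptpn11, Cdh1, Cd96, Eomes, Id2 and Nfil3, were named outside this rule with their values known. Genes with several probe sets were represented by the brightest. The labels number the kidneys 1 to 5 in each group. Deviations of same-numbered kidneys correlated between -0.02 and 0.03 in 15 pairs, none over 0.1, so the numbers were not used as pairs. No 2 arrays were identical. Separate animals are not named in the labels beyond these numbers, so p-values measure the spread between these kidneys. Controls may share donors with grafts, and which ones do so is not stated in the labels.

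On simulated data, the fit recovered 76% of genes planted at a log2 change of 2 and 49% at 1 in aTX against ctr (31042 probe sets). Only 100 were planted at each size, and all others were unchanged. In the kidneys 20.2% of probe sets were called higher and 22.2% lower, so these rates need not hold for the reported fit. Alternatives were another offset, a floor of 16, a filter on dim probe sets (mean below 20), median centring, quantile normalization, eBayes without trend, the methods' t-test, fits of the 2 groups compared, the wash run and replicate number as blocks, 1 run alone, and leaving out each array, or sTX 4 and sTX 5.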

Additional observations from a re-analysis of the deposited data

Results flagged for a closer look

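In 2 of 33 sets of 5 signals a single kidney stood apart from the others of its group, by a gap to the nearest that took more than 0.71 of the range. Chance alone gives about 1 in 20. Klrc1 had a signal of 62.3 in aTX 4, with the nearest aTX kidney at 23.3 (gap over range 0.785). Ncr1 had a signal of 8.5 in sTX 3, with the nearest sTX kidney at 1.9 (0.835), and this kidney made the aTX and sTX kidneys overlap.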

How the results depend on the processing

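For the receptors, Klrk1 and Klrd1 in aTX against ctr and in aTX against sTX were called in all 28 alternatives run, with log2 changes of 3.05 to 3.86 and 1.41 to 2.95 against ctr. The count of receptors higher in sTX against ctr was 0 by the methods' t-test at an unadjusted p below 0.001, and that in aTX against sTX was 2 with signals below 16 set to 16, where Klrc1 (adjusted p = 0.0755) and Ncr1 lost their calls. Signals of Klrg1, Ncr1 and Ncr3, all below 16, limit what could be seen. Ncr1 in aTX against sTX lost its call in 13 of 27 alternatives, its log2 change being 1.90 to 2.86 without any 1 array. Reversals concerned changes that were called neither way. Klrc1 in sTX against ctr turned to 0.97 with the run as a block and to 0.014 without sTX 4 and sTX 5, and ranged from -0.21 to 0.11 with 1 array left out. Ncr3 turned to 0.16 in sTX against ctr with the run as a block and to 0.13 in aTX against sTX after quantile normalization. Klrb1a turned to -0.026 in sTX against ctr after quantile normalization, and Cd244l1 1369522_a_at ranged from -1.36 to 0.20 with 1 array left out. Klrg1 in aTX against sTX turned to 0.00633 with log2(signal + 16), to 0.071 with the run as a block or within 1 run and to 0.57 without sTX 4 and sTX 5, and ranged from -0.88 to 0.47 with 1 array left out. The causes were not tested. For genes of the lists, the floor of 16 was added after seeing the data. In aTX against ctr it ended the calls of Clec2d, Klra5 and Eomes, and Cd96 gained a call. The calls it ended in sTX against ctr include those of Cd69, Lat, Lcp2, Cd7, Cd3g and Itgam.

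In sTX against ctr Cd244l1 1370483_at gained a call with dim probe sets removed, without sTX 4 and sTX 5, and without ctr 2, ctr 3 or sTX 4 (adjusted p from 0.0192). Klrb1b gained it without ctr 3 (log2 -1.64, adjusted p = 0.0223). Klrb1c gained it with dim probe sets removed, without sTX 4 and sTX 5, and without sTX 1 or sTX 4, beside the scalings given above. Median centring moved the array-wide median in sTX against ctr to -0.11 on the log2 scale, against 0.09 as deposited.

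With the replicate number as a block, receptors called higher were 3, 1 and 3 in aTX against ctr, sTX against ctr and aTX against sTX, Ncr1 being lost (adjusted p = 0.0523), and the whole array had 6194 calls upward and 6799 downward in aTX against ctr. With the run as a block, sTX against ctr had 713 calls upward and 255 downward on the whole array, where it had 3539 and 1961 without the block.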
